A study of Mus musculus with 20 samples.

Results

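Among the 13798 genes of the single-cell expression table from splenic follicular T cells, 7 make up the memory and lymph node homing programme described here, namely Tcf7, Lef1, Klf2, S1pr1, Ccr7, Il7r and Sox4. The genes were chosen by name, and each was read in every mouse across the 6 clusters that the authors named. On GRCm38 with GENCODE annotation, Tcf7 lies at chr11:52252371-52283014, Lef1 at chr3:131110471-131224356, Klf2 at chr8:72319033-72321656, S1pr1 at chr3:115710433-115715072, Ccr7 at chr11:99144196-99155077, Il7r at chr15:9505788-9530176 and Sox4 at chr13:28948919-28953713, and the values cover the whole gene. The cells came from 5 WT and 5 mixed 564Igi bone marrow chimeras on the C57BL/6 background, all made by irradiating adult recipients. WT chimeras received congenic marrow and were immunized with NP-OVA in alum at week 6, and the study's methods add a later boost. Mixed 564Igi chimeras received congenic marrow together with marrow carrying a knock-in heavy and light chain of a B cell receptor against ribonuclear complexes, and were not immunized. The labels place sacrifice at week 10 for all mice and give the sex of the chimeras as 2 females with 3 males (WT) and 3 females with 2 males (564Igi). Immunization and the autoreactive clone therefore cannot be told apart in any comparison between the conditions.

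The sort gate took splenic CD3+CD4+ cells that were positive for CD45.2, CXCR5 and PD-1 and negative for CD45.1, and each mouse gave 1 gene expression and 1 V(D)J library. The tables hold 28192 cells with RNA, between 1121 and 4030 per mouse, and 75.9% of them also carry a paired TCR. Raw totals per mouse ranged from 3424280 to 15241983 UMIs, with medians of 2728 to 4375.5 UMIs per cell. Of 27695 distinct barcode sequences, 491 occurred in more than 1 library. WT mouse 36 and 564Igi mouse 34 stood apart with the highest heat shock scores, and results that rest on them are also given without them. Levels are the mean over cells of log2(corrected count + 1), where the corrected count is the UMI count after the authors' sctransform normalization, run on each condition separately.

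Naive and central memory T cells recirculate through lymphoid organs. The transcription factor KLF2 drives the sphingosine-1-phosphate receptor S1PR1, which lets T cells leave tissue toward blood and lymph, and together with FOXO1 maintains the homing receptor CCR7 and the IL-7 receptor. TCF-1 (Tcf7) and LEF-1 (Lef1) are related HMG-box factors that preserve stem-like and memory potential and also help start the follicular helper (Tfh) program. Tfh cells generally lower Klf2, S1pr1 and Ccr7 in order to stay in the follicle, while Sox4 is an HMG-box factor found in early lymphoid cells and some naive cells.

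The promoters of Klf2, Tcf7 and Lef1 are shown because these 3 genes had the largest differences between conditions within the effector cluster. The sequences are RefSeq windows on GRCm38.p6 from 250 bases before to 50 bases after an annotated start, and capitals mark CACCC, the core of Krüppel-like factor motifs, and GTAAACA, a forkhead motif, on either strand (CACCC reads GGGTG on the other). CTTTGA and CTTTGT, forms of the TCF/LEF motif, were also searched on both strands and are absent from these 3 windows. The Klf2 window lies at chr8:72318812-72319111 on the plus strand, the Tcf7 window at chr11:52282546-52282845 on the minus strand and the Lef1 window at chr3:131110047-131110346 on the plus strand.
Klf2: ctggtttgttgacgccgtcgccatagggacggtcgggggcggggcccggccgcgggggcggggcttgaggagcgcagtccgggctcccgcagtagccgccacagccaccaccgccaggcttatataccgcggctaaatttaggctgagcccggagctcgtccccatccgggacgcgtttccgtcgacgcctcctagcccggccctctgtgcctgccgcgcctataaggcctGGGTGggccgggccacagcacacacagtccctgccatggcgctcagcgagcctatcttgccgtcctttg
Tcf7: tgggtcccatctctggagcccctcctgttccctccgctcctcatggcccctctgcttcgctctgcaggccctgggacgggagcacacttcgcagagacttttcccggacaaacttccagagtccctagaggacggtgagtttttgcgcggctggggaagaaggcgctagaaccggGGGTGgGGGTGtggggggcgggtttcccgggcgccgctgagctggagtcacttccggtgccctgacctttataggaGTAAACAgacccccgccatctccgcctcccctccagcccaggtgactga
Lef1: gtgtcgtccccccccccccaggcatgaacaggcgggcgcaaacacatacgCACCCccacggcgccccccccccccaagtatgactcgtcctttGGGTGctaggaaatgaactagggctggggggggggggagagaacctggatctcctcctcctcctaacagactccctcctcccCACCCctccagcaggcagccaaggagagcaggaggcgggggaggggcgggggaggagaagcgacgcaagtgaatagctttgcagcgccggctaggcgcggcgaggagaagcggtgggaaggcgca
The Klf2 window held 1 CACCC, the Tcf7 window 2 CACCC and 1 GTAAACA, and the Lef1 window 3 CACCC. The Tcf7 window shown is a start within the gene, and the window at its outer annotated start, chr11:52282965-52283264, held 2 CACCC and no GTAAACA. Over 32817 promoters of the same length, 57.5% held CACCC, 3.65% held GTAAACA and 31.2% held CTTTGA or CTTTGT. A further annotated Lef1 start, at chr3:131156044-131156343, held 3 TCF/LEF motifs and 1 CACCC. The Il7r and Sox4 windows held none of these motifs. S1pr1 and Ccr7 have no entry in the table.

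Across clusters, the central memory cluster held the highest level of 6 of the 7 members, and Il7r was the exception. The clusters had been made from the same cells and genes, so the order is a description without a test. The activated cluster (Tfh-activated) held 11953 cells, the regulatory (Tfr) cluster 11650, the Sostdc1 cluster 2803, the central memory cluster (Tfh-CM) 725, the effector cluster (Tfh-effector) 682 and the interferon-stimulated cluster (Tfh-ISG) 379. A mouse entered a cluster with at least 20 cells, which left 8 mice for the central memory and ISG clusters and 10 for the others.

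Tcf7 averaged 1.41 ± 0.10 (SD, n = 8) in the central memory cluster, with a UMI in 82.0% of cells. It was 1.31 ± 0.18 (n = 10) in the Sostdc1 cluster, 1.27 ± 0.15 in the activated cluster, 0.94 ± 0.18 in the ISG cluster, 0.65 ± 0.042 in Tfr cells and 0.57 ± 0.22 in the effector cluster. The ranges of the highest 4 clusters overlapped from neighbour to neighbour, whereas the ISG and Tfr ranges did not overlap. The effector cluster had the widest range, from 0.24 to 0.90. Lef1 behaved differently, because 1 cluster lay far above the rest. It reached 1.10 ± 0.19 in the central memory cluster, where every mouse lay above every mouse of the activated cluster, at 0.38 ± 0.065. The other 4 clusters followed closely, from 0.32 in Tfr cells to 0.24 in the effector cluster, with overlapping ranges.

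Klf2 averaged 1.01 ± 0.21 in the central memory cluster, 0.65 ± 0.24 in the ISG cluster, 0.59 ± 0.22 in the activated cluster and 0.55 ± 0.24 in the effector cluster. It was lowest in the Sostdc1 cluster, at 0.23 ± 0.095, and in Tfr cells, at 0.10 ± 0.043, where 7.72% of cells had a UMI. In all 10 mice the Sostdc1 level lay above the Tfr level. S1pr1, the egress receptor, was likewise lowest in Tfr cells, and ran from 0.59 ± 0.19 in the central memory cluster and 0.42 ± 0.097 in the activated cluster down to 0.16 ± 0.037 in Tfr cells. Ccr7, the receptor for the chemokines of the T cell zone, was found in 19.0% of central memory cells, 14.9% of activated cells and 5.56% of effector cells, with levels of 0.25 ± 0.092, 0.18 ± 0.074 and 0.064 ± 0.052.

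Il7r, the α chain of the IL-7 receptor, ran in the opposite order at the extremes. It was highest in the activated cluster, at 0.32 ± 0.16 with a UMI in 21.7% of cells, and lowest in the central memory cluster, at 0.056 ± 0.044 with a UMI in 4.53% of cells. Mice differed widely, from 9.11% to 36.1% of activated cells. Sox4 was nearly restricted to the central memory cluster, at 1.16 ± 0.25 with a UMI in 66.9% of cells, and the next cluster was the effector cluster at 0.045 ± 0.026 with a UMI in 3.52% of cells. In the other 4 clusters between 0.445% and 0.620% of cells had a Sox4 UMI.

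**Figure D1:**
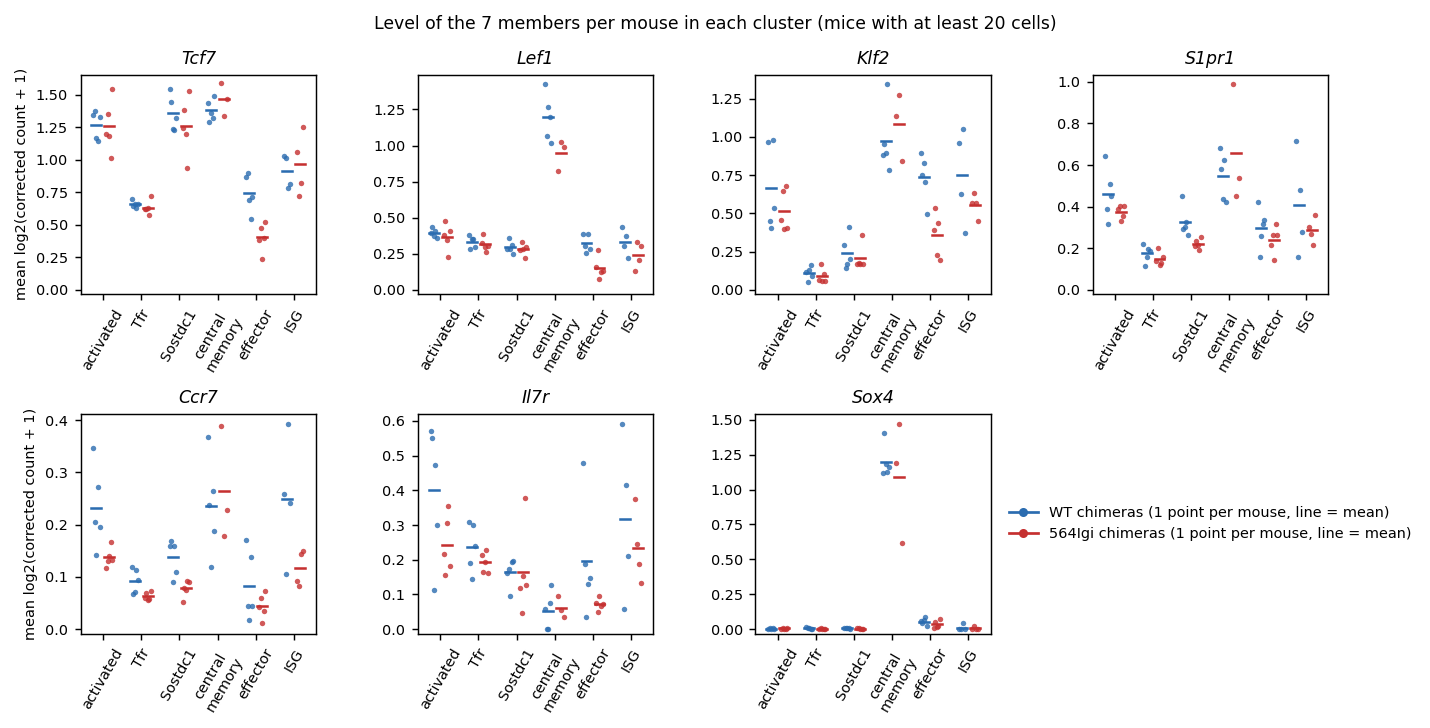
Level of each member in the 6 clusters, as the mean over cells of log2(corrected count + 1), with 1 point per mouse, WT in blue and 564Igi in red, and a line at each group's mean. Sox4 and Lef1 in the central memory cluster lie above every other cluster without overlap, and Il7r is lowest there.

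The name of the central memory cluster was set against markers. The summed level of its 4 markers, of which Sox4 and Lef1 are themselves members, had a median over mice of 6.53 (WT) and 6.29 (564Igi) corrected counts there, 1.44 and 0.978 in the effector cluster and 0.613 and 0.547 in the activated cluster. Slamf7, another marker, had a UMI in 47.8% (WT) and 59.6% (564Igi) of central memory cells and in 45.1% of WT effector cells. In WT mice it therefore did not set the central memory cluster apart from the effector cluster. Although CD4 had been used in the sort, Cd4 had a UMI in only 31.2% (WT) and 38.6% (564Igi) of central memory cells, against 71.6% and 79.9% of effector cells. Cxcr5 was found in 27.2% and 26.1% of central memory cells, and Cd3e in 98.1% and 96.5%. The low Il7r level, too, goes against the usual definition of central memory cells, which carry the IL-7 receptor. In the sorted cells as a whole, the B cell gene Ms4a1 was found in 0.0431% (WT) and 0.0677% (564Igi) of cells. Another, Cd79a, was found in 0.224% and 0.282%. The 4 B cell genes measured summed to a median over mice of 0.104 (WT) and 0.0859 (564Igi) corrected counts per cell. The shares of Ms4a1 and Cd79a therefore do not stand for all B cell genes. The Sox4 shares in the activated, Tfr, Sostdc1 and ISG clusters were low, and in WT mice they lay above the Ms4a1 and Cd79a shares. In 564Igi mice those in Tfr (0.251%) and Sostdc1 cells (0.262%) lay below the Cd79a share. Those in activated (0.485%) and ISG cells (0.581%) lay above it. Sox4 did not pass the filter for a test in any of these clusters.

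The number of members found per cell was also highest there. In the central memory cluster a cell had a UMI of 3.45 ± 0.30 members on average (n = 8), and 76.6% of cells had at least 3. Activated cells averaged 2.05 ± 0.30 members, ISG cells 1.81 ± 0.47, Sostdc1 cells 1.63 ± 0.16, effector cells 1.38 ± 0.45 and Tfr cells 1.20 ± 0.13.

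The comparison of 564Igi with WT chimeras asks whether the program differs in T cells that developed beside an autoreactive B cell clone. The clearest differences lay in the effector cluster, whose cells are marked by Ccl5, Gzmk and Nkg7. There Tcf7, Klf2 and Lef1 were lower in 564Igi mice, by 0.34, 0.38 and 0.17 on the log2 scale, and fewer effector cells showed each of them. No member passed the call rule (adjusted p under 0.01, and a change of more than 0.2 on the log2 scale in either direction) in any cluster. At an unadjusted p below 0.05 in limma, 4 of 7 members were lower and 0 higher in the effector cluster, where 3.55% of 9637 genes tested were lower by that rule and 0.0104% passed the call rule in either direction. The separate normalization of the 2 conditions and the immunization of WT mice cannot be told apart from the condition here or below.

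Effector Tcf7 was 0.87, 0.90, 0.69, 0.55 and 0.72 in WT mice 11, 12, 14, 23 and 36. It was 0.38, 0.48, 0.24, 0.40 and 0.52 in 564Igi mice 13, 17, 21, 24 and 34. Every WT mouse thus lay above every 564Igi mouse. The difference was -0.34 (SE 0.067), with a limma adjusted p of 0.0343 and an exact permutation p of 0.00794, the smallest that 5 against 5 mice allow. Across all genes tested in this cluster, 0.685% were lower in 564Igi with no overlap between mice. The share of cells with a Tcf7 UMI was 50.7% ± 5.80 in WT and 30.7% ± 7.41 in 564Igi effector cells (n = 5 each), and 45.3% and 22.95% after thinning every cell to 2800 corrected UMIs.

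Effector Klf2 was 0.89, 0.75, 0.83, 0.71 and 0.50 in the WT mice and 0.39, 0.54, 0.23, 0.44 and 0.19 in the 564Igi mice, in the same order of mice. The groups met at 1 point, where WT mouse 36 lay below 564Igi mouse 17. The difference was -0.38 (SE 0.069), with a limma adjusted p of 0.0145 and an exact permutation p of 0.0159. The share of cells with a Klf2 UMI was 43.3% ± 10.0 in WT and 26.0% ± 9.03 in 564Igi effector cells. Thinned shares were 37.2% and 23.4%, so the shares kept their order at equal depth.

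Effector Lef1 was 0.39, 0.30, 0.25, 0.39 and 0.28 in the WT mice and 0.16, 0.28, 0.079, 0.12 and 0.13 in the 564Igi mice. Only 564Igi mouse 17 reached into the WT range. The difference of -0.17 had a limma adjusted p of 0.150 and an exact permutation p of 0.0159. The share of cells with a Lef1 UMI was 27.6% in WT and 13.96% in 564Igi effector cells. Il7r differed by -0.12 with an exact permutation p of 0.0635, and this rested on WT mouse 11 at 0.48, without which the difference was -0.053. S1pr1, Ccr7 and Sox4 differed by -0.057, -0.038 and -0.019, each with overlapping groups and exact permutation p of 0.310, 0.310 and 0.254. The share with a Sox4 UMI was 4.80% in WT and 2.24% in 564Igi effector cells (exact permutation p 0.0317, and 0.0556 after thinning).

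**Figure D2:**
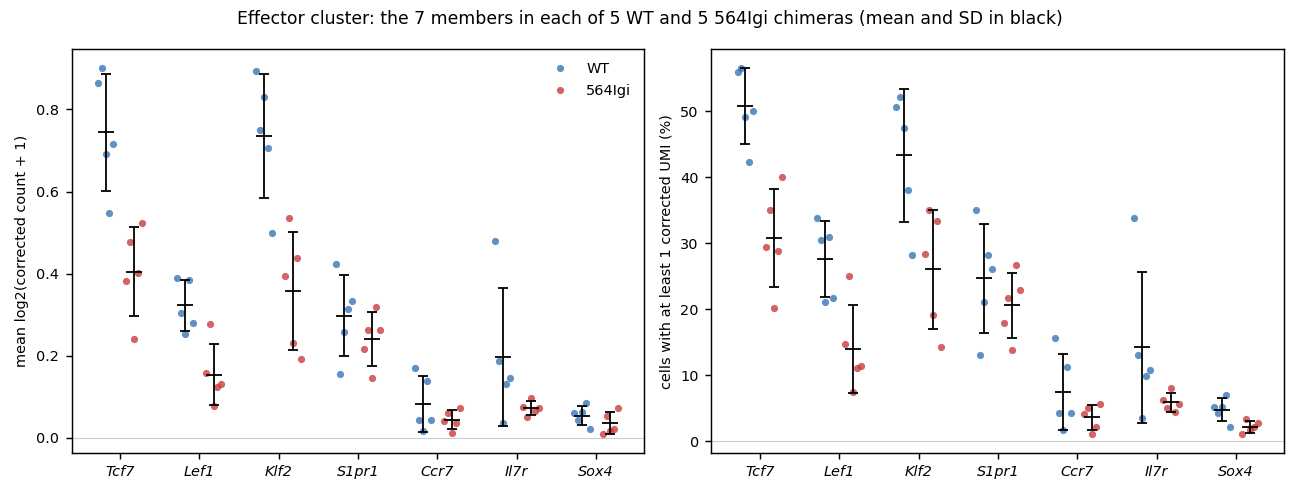
The 7 members in the effector cluster, as the mean level (left, log2 of corrected count + 1) and the percent of cells with at least 1 corrected UMI (right), with 1 point per mouse and the mean and SD in black. For Tcf7 the 5 WT mice lie above the 5 564Igi mice in both panels.

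Counted per cell, the effector cluster showed 1.73 ± 0.34 members in WT and 1.03 ± 0.21 in 564Igi mice, and 22.0% against 40.2% of cells showed none. At least 3 members were found in 29.1% of WT and 11.3% of 564Igi effector cells. Depth overlapped between conditions, with a mean of the mice's median UMIs per effector cell of 3737 in WT and 3530 in 564Igi (exact permutation p 0.540). Cells of expanded clonotypes made up 64.4% and 76.6% (exact permutation p 0.111), and the summed level of the effector markers ranged from 64.8 to 151 corrected counts in WT and from 113 to 257 in 564Igi mice, with overlap. The part of either in the difference was not tested apart from an equal weighting of clonotypes. The effector cluster held between 23 and 173 cells per mouse, and the largest clonotype made up 31 of 64 TCR-bearing cells in WT mouse 11 and 21 of 53 in 564Igi mouse 17. With each clonotype weighted equally, the differences were -0.26 for Klf2, -0.32 for Tcf7 and -0.12 for Lef1. This alternative was added after seeing the data and used only cells with a TCR, so the cells changed along with the weights. The limma adjusted p was 0.986 for each, and the unadjusted limma p was 0.0037, 0.00093 and 0.058 in that order. Without mice 34 and 36 the differences were -0.39, -0.38 and -0.17 in the same order, and Klf2 and Tcf7 then passed the call rule. Klf2 also passed it without WT mouse 36 or without 564Igi mouse 17, and Tcf7 without WT mouse 23.

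Related genes were read from a list of 26 other homing and memory genes. Of 24 tested in the effector cluster, 10 were lower and 0 higher at an unadjusted p below 0.05, with a median of -0.085 against -0.0043 over all genes tested. Among the 10 were Id3, an inhibitor of E proteins, at 0.39 in WT and 0.17 in 564Igi mice (difference -0.22, limma adjusted p 0.0490), and Slamf6, a receptor of stem-like and follicular T cells, which differed by -0.28 with no overlap between mice (limma adjusted p 0.107). These 2 were named after their values were seen. By the rule for named genes, Satb1, Gpr18 and Ms4a4b join Id3 as the genes with the largest differences in the central memory or activated cluster. In the central memory cluster Id3 differed by -0.39, Satb1, a chromatin organizer of T cells, by -0.19, Ms4a4b by -0.17 and Gpr18 by 0.16, with limma adjusted p from 0.417 to 0.819. Id3 differed by -0.28 in the activated cluster (limma adjusted p 0.956). Over that list, 3 of 24 genes were lower and 1 higher at an unadjusted p below 0.05 in the central memory cluster. There 2.34% of all genes were lower and 5.24% higher. In the activated cluster 4 of 24 were lower and 0 higher, against 1.9% of all genes lower and 2.09% higher.

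The list of 16 retention and effector genes moved less evenly in the effector cluster. There 1 was higher and 3 were lower at an unadjusted p below 0.05, against 1.67% of all genes higher and 3.55% lower. The higher gene was Id2, at 0.21, and the lower genes were Gpr183 at -0.20, Cd44 at -0.093 and Tbx21 at -0.077. These genes were named for these values, outside the rule for named genes. Gpr183 encodes EBI2, which guides cells to the outer follicle, Cd44 an adhesion receptor and Tbx21 the factor T-bet. The median of the list was 0.013. In the activated cluster the same list had 4 genes higher and 0 lower, against 2.09% of all genes higher, among them Icos, a costimulatory receptor, at 0.18 and Ascl2, a factor of early Tfh cells, at 0.15. Pdcd1, which encodes the sorted marker PD-1, differed by 0.21 there (limma adjusted p 0.9997) with an unadjusted p above 0.05, and Rgs1, a regulator of chemokine receptor signaling, by 0.14 in the central memory cluster.

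Ccr7 was lower in 564Igi at an unadjusted limma p below 0.05 over all cells and in 4 clusters, more than any other member, although each difference was small. Without regard to p, Lef1 had a lower mean in all 6 clusters and Ccr7 in 5. In the activated cluster it was 0.35, 0.21, 0.14, 0.27 and 0.19 in the WT mice and 0.12, 0.13, 0.14, 0.17 and 0.13 in the 564Igi mice. WT mice 14 and 36 lay nearest the 564Igi range, and only WT mouse 14 lay inside it. The difference was -0.095 (SE 0.027), with a limma adjusted p of 0.862 and an exact permutation p of 0.0159, and 18.3% ± 5.58 of WT against 11.4% ± 1.67 of 564Igi cells had a UMI. Over all follicular T cells Ccr7 differed by -0.061 (exact permutation p 0.0159), in Tfr cells by -0.030 (exact permutation p 0.0397) and in Sostdc1 cells by -0.059 (exact permutation p 0.0238). In the ISG cluster, with 4 against 4 mice, it differed by -0.13 (exact permutation p 0.0857), and in the central memory cluster by 0.029 (exact permutation p 0.714).

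In the activated cluster 2 of 6 members tested were lower at an unadjusted p below 0.05, against 1.9% of all genes, and 0.0101% of genes passed the call rule. Besides Ccr7 this was Il7r at -0.16 (exact permutation p 0.127). WT mouse 14 lay at 0.11, below every 564Igi mouse, and the other WT mice between 0.30 and 0.57. Without WT mouse 11, WT mouse 12 or 564Igi mouse 17 the Il7r difference had an unadjusted limma p above 0.05. Klf2 differed by -0.15 there with wide spread, at 0.67 ± 0.28 in WT and 0.52 ± 0.13 in 564Igi mice. Tcf7 was 1.27 ± 0.11 and 1.26 ± 0.20, a difference of -0.013 (SE 0.090). Sox4 did not pass the filter of 1% of cells in the activated, Tfr, Sostdc1 and ISG clusters.

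Over all follicular T cells, 3 of 7 members were lower at an unadjusted p below 0.05, against 1.72% of all genes, with 0.01% passing the call rule. Besides Ccr7 these were Il7r at -0.079 (exact permutation p 0.190) and Sox4 at -0.030 (exact permutation p 0.0397). Central memory cells, where Sox4 was highest, numbered 560 in WT and 165 in 564Igi mice. WT mice 11 and 23 gave 185 and 176 of the WT cells. The share of these cells per mouse overlapped between conditions, with 564Igi mice 17 (2.73%) and 24 (2.59%) inside the WT range of 2.22% to 6.5%. The 564Igi mice 13, 21 and 34 lay below it, at 0.694%, 0.609% and 0.445%. Whether Sox4 followed this share from mouse to mouse was not tested. When each mouse's cluster means were weighted by pooled cluster shares the Sox4 difference was -0.0033, whereas that of Ccr7 stayed at -0.060.

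In Sostdc1 cells the egress receptor S1pr1 separated the conditions. It was 0.45, 0.29, 0.30, 0.32 and 0.27 in the WT mice and 0.21, 0.24, 0.21, 0.19 and 0.26 in the 564Igi mice, so that every WT mouse lay above every 564Igi mouse. The difference was -0.11 (SE 0.031), with a limma adjusted p of 0.648 and an exact permutation p of 0.00794, and 0.506% of all genes were lower with no overlap in that cluster. The share of Sostdc1 cells with a UMI was 28.1% ± 5.71 (WT) and 19.6% ± 1.87 (564Igi), and 22.8% and 15.7% after thinning. In the same cells the share in expanded clonotypes was 86.1% in WT and 77.3% in 564Igi (exact permutation p 0.0159) and the mitochondrial share 3.95% and 3.64% (exact permutation p 0.0397), whose part in the result was not tested. With Ccr7, 2 of 6 members were lower at an unadjusted p below 0.05 in Sostdc1 cells, against 3.06% of all genes, and 0.0202% of genes passed the call rule.

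In the central memory cluster, with 5 WT and 3 564Igi mice, Lef1 was 1.42, 1.06, 1.27, 1.20 and 1.02 in WT mice and 0.83, 1.02 and 0.99 in 564Igi mice 13, 17 and 24. The groups met near 1.02, and the difference of -0.25 had an exact permutation p of 0.0536, where 5 against 3 mice allow 0.0179. Lef1 was thus 1 of 7 members lower at an unadjusted p below 0.05, against 2.34% of all genes, and 0% of genes passed the call rule in that cluster (0 of 10351, while 784 genes had an unadjusted p below 0.05 in limma). The other members there had overlapping groups, with Tcf7 at 1.38 ± 0.083 in WT and 1.47 ± 0.12 in 564Igi mice and Sox4 at 1.20 ± 0.12 and 1.09 ± 0.43 (exact permutation p 0.250 and 0.786). Effector markers moved with condition in the same cells, since their summed level ranged from 1.98 to 2.47 corrected counts in WT and from 6.81 to 9.58 in 564Igi mice, without overlap, and Gzmk was found in 15.9% and 40.1% of cells. Their part in the Lef1 difference was not tested.

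In Tfr cells 1 of 6 members, Ccr7, was lower at an unadjusted p below 0.05, against 1.91% of all genes, with 0.02% passing the call rule. In Tfr cells the mitochondrial share was 3.51% in WT and 3.19% in 564Igi mice (exact permutation p 0.0159). In the ISG cluster 2 of 6 members, Ccr7 and Klf2, were lower at an unadjusted p below 0.05, against 2.27% of all genes, with 0.0106% passing the call rule. Klf2 there was 0.75 ± 0.31 in WT and 0.56 ± 0.08 in 564Igi mice (n = 4 each), a difference of -0.20 with an exact permutation p of 0.343.

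**Figure D3:**
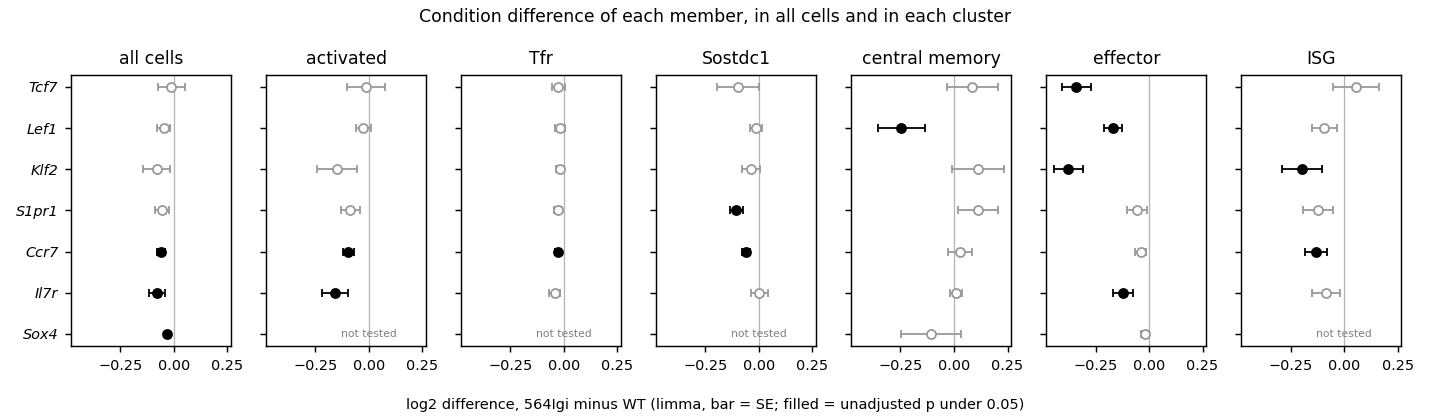
Difference in level between 564Igi and WT mice for each member, over all cells and in each cluster, on the log2 scale, with bars for the limma standard error and filled points for an unadjusted p below 0.05. Tcf7 and Klf2 in the effector cluster lie furthest below 0, at -0.34 and -0.38, and members below the filter are marked as not tested.

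Whether a difference between conditions differed from that in activated cells was tested on each mouse's cluster minus activated value. For the effector cluster 3 of 6 members reached an unadjusted p below 0.05 in limma, against 5.94% of genes, namely Tcf7 at -0.33 (exact permutation p 0.0159), Lef1 at -0.14 (exact permutation p 0.0238) and Ccr7 at 0.057 (exact permutation p 0.0238). The Tcf7 and Lef1 differences were thus more negative in effector than in activated cells, and that of Ccr7 less so. Klf2 differed by -0.23 between these clusters, with a limma adjusted p of 0.884. For Tfr cells 1 of 6 members did so, against 7.27% of genes, with Ccr7 at 0.066. For Sostdc1 cells 2 of 6 did so, against 6.33% of genes, with Tcf7 at -0.086 and Il7r at 0.16. For the central memory cluster 1 of 6 did so, against 8.92% of genes, with Ccr7 at 0.12. The limma adjusted p was 0.519 or higher for every member in these tests.

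Clonal expansion was read from the paired TCRs, with expanded clonotypes holding at least 2 cells of a mouse. The comparison of expanded with single clonotypes was made within each mouse. In activated cells Lef1, Ccr7, Klf2 and Il7r were lower in expanded clonotypes, which makes 4 of 6 members lower at an unadjusted p below 0.05, against 17% of all genes. Lef1 was lower in expanded clonotypes in all 10 mice, with differences from -0.14 to -0.014 and a mean of -0.073 ± 0.031 (limma adjusted p 0.0105). Ccr7 was also lower in all 10 mice, with differences from -0.15 to -0.0015 and a mean of -0.055 ± 0.046 (limma adjusted p 0.0417). For both genes the exact sign-flip permutation p was 0.00195, the smallest that 10 mice allow.

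Klf2 in activated cells differed by -0.14 ± 0.10 and was lower in 9 of 10 mice, with a limma adjusted p of 0.0582. Il7r differed by -0.094 ± 0.097, also in 9 of 10 mice (limma adjusted p 0.0765). S1pr1 differed by -0.029 with 3 mice in the other direction. With each clonotype weighted equally the limma adjusted p was 0.116 for Lef1, 0.0968 for Ccr7, 0.177 for Klf2 and 0.182 for Il7r, with every mean still below 0. In Tfr cells 4 of 6 members (Lef1, Klf2, Ccr7 and Il7r) were lower in expanded clonotypes at an unadjusted p below 0.05, against 14.2% of genes, with mean differences from -0.024 to -0.075. With each clonotype weighted equally Ccr7 in Tfr cells differed by -0.018 and no longer had an unadjusted limma p below 0.05, Klf2 differed by -0.018 and Tcf7 turned from -0.018 to 0.067. In Sostdc1 cells, with 7 mice, 0 of 6 members were lower by that limma rule, against 3.67% of genes.

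In activated cells Tcf7 differed between conditions in this comparison. In WT mice its level in activated cells was 0.063 ± 0.081 higher in expanded clonotypes, with 4 of 5 mice in that direction. In 564Igi mice the difference was -0.16 ± 0.062, with 0 of 5 mice higher. The values per mouse were 0.095, 0.19, 0.018, -0.0066 and 0.020 in WT and -0.15, -0.26, -0.085, -0.14 and -0.15 in 564Igi mice, and the groups did not overlap. The difference between conditions was -0.22 (exact permutation p 0.00794, limma adjusted p 0.527), and -0.097 with each clonotype weighted equally. At that weighting the mean over both conditions was -0.053, so the WT mean was no longer above 0. The opposite directions of the conditions thus held only with cells weighted equally. By limma, 631 of 9859 genes had an unadjusted p below 0.05 for such a difference in activated cells. The share of all genes without overlap was not counted here. In Sostdc1 cells, with 3 WT and 4 564Igi mice, Tcf7 ran the other way, at -0.14 in WT and 0.047 in 564Igi mice, a difference of 0.19 (exact permutation p 0.0857).

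**Figure D4:**
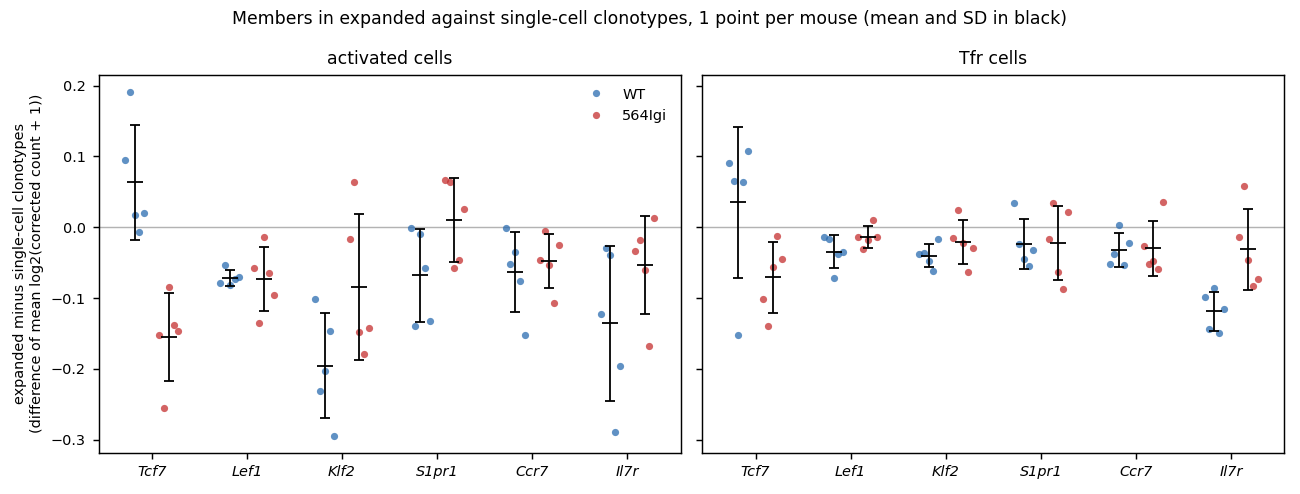
Level in expanded minus single clonotypes within each mouse (log2 scale) for the 6 members that passed the filter, in activated (left) and Tfr (right) cells, with 1 point per mouse and the mean and SD of each condition in black. Each cell counts equally here. In activated cells Lef1 and Ccr7 lie below 0 in all 10 mice, and Tcf7 lies on opposite sides of 0 in most WT and all 564Igi mice.

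Co-detection within single cells was read as an odds ratio for each of the 21 pairs, combined over mice by the Mantel-Haenszel estimate. It is a description, because pairs share cells and depth. In the central memory cluster 16 of 21 pairs lay above 1, with a median of 1.59. The highest was Klf2 with S1pr1, at 4.01, where 236 cells had both against 183 expected from each mouse's shares. The 5 pairs below 1 all held Sox4, from 0.55 with Ccr7 to 0.96 with Lef1. By condition, Sox4 with Klf2, S1pr1 and Ccr7 was below 1 in both, whereas Sox4 with Tcf7 was 0.66 in WT and 1.74 in 564Igi cells and with Lef1 0.68 and 2.43. Klf2 and the receptors S1pr1 and Ccr7 thus shared cells more often than their shares alone give, and Sox4 less often, with Klf2 and Sox4 together in 283 cells against 300.3 expected. The Il7r pairs rested on 35 cells with an Il7r UMI.

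In the effector cluster 19 of 21 pairs lay above 1, with a median of 1.87. Tcf7 with Ccr7 reached 4.25 from 27 cells, Klf2 with Ccr7 3.44 from 23 cells, and Klf2 with S1pr1 2.53 from 74 cells. Lef1 with Sox4 had the highest ratio, 7.81, from 14 cells against 5.15 expected, and it came to 1.12 after thinning. Tcf7 with Klf2 was found in 114 cells against 88.1 expected, an odds ratio of 2.26. Medians after thinning were 1.53 in the central memory and 1.52 in the effector cluster.

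**Figure D5:**
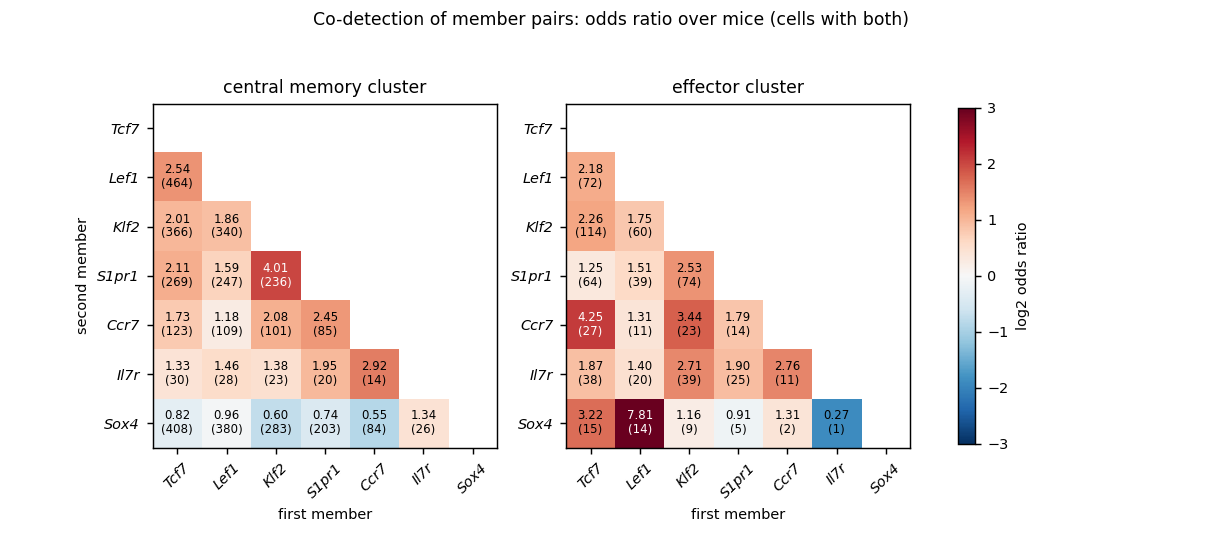
Odds ratio of finding both members of a pair in the same cell in the central memory (left) and effector (right) cluster, with the number of cells with both in parentheses and color on a log2 scale. Sox4 pairs are below 1 in 5 of 6 cases on the left, and 19 of 21 pairs are above 1 on the right.

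For the 21 pairs, each mouse's deviations from the mean level of its condition were correlated over 10 mice. The p was taken from exact permutations within each condition. In activated cells 13 pairs had a positive Pearson r, 4 had an unadjusted p below 0.05 and 0 had an adjusted p below 0.05. Klf2 with Ccr7 had r = 0.85 (permutation p 0.0120, adjusted 0.188; rho 0.87, permutation p 0.0433), and r was 0.76 without the 2 mice farthest from the median. The highest was S1pr1 with Ccr7, at r = 0.88 (permutation p 0.0233, adjusted 0.188; Spearman rho 0.66, permutation p 0.156), and r was 0.68 without the 2 farthest mice. In Tfr cells S1pr1 with Ccr7 had r = 0.85 (permutation p 0.000556, adjusted 0.0117; rho 0.87, permutation p 0.00167, adjusted 0.035), and r was 0.87 without the 2 farthest mice. Within Tfr cells 18 of 21 pairs were positive.

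Genes with the most similar pattern were named by Spearman rho over 56 mouse-by-cluster means among 9959 genes, as a description. S1pr1 and Ccr7 were each other's nearest gene, at 0.80. The nearest genes were Nsg2 at 0.85 for Tcf7, Rnf144a at 0.82 for Lef1, Gm2682 at 0.89 for Klf2, Tmem154 at 0.71 for Il7r and Cldn10 at 0.84 for Sox4. Ranks 2 and 3 were Slamf6 and Ssh2 for Tcf7, Gpr183 and Klhl6 for Lef1, Ms4a4b and Rasa3 for Klf2, Klf2 and Gm2682 for S1pr1, Pdlim1 and Thada for Ccr7, Zfp947 and Il18r1 for Il7r, and Fam49b and Zyx for Sox4. Il7r and Sox4 had a rho of -0.52 with each other, the members' most opposed pair.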

How the data were processed

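Sorted splenic follicular T cells of 5 WT and 5 564Igi chimeras were analysed, with each mouse as 1 replicate, since the labels name 1 mouse per library pair. Per the submitters' notes, reads were processed with Cell Ranger 4.0.0 and Seurat 3.1.4 on GRCm38. The authors normalized each condition separately with sctransform, removed low-quality cells, and named the clusters. The deposited expression values are the natural log of corrected count + 1. Their exponentials minus 1 deviated from whole counts by a relative 2.4e-07 at most, and they were converted to log2. The deposited cell table also gives raw UMI counts per cell, the percent of mitochondrial reads and the heat shock score, all made by the authors.

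Levels were averaged per mouse and cluster, for mice with at least 20 cells and genes found in at least 1% of cells, and fitted with limma 3.58.1 (R 4.3.3; variance trend, Benjamini-Hochberg adjustment over all genes tested). The call rule was an adjusted p under 0.01 together with a log2 difference of more than 0.2 in either direction. Single members were also tested by two-sided exact permutation over 252 assignments of mice or 1024 sign flips within mice, and relations over 14400 arrangements within condition. Shares were repeated after thinning to 2800 corrected UMIs, with 0 cells shallower. Python 3.11.15, numpy 2.4.6, pandas 2.3.3, scipy 1.17.1 and matplotlib 3.10.9 were used. No doublet caller was run and free RNA was not removed. The fits were tested on simulated data. Alternatives covered the variance trend, filter, scale, sex, heat shock, mice 34 and 36, cell minimum, clone size and single mice, and clonotype weighting was added after seeing the data. Clonotype weighting used only cells with a TCR. The members and gene lists were chosen with earlier results of these data known. All members were named throughout, each list by up to 4 genes with the largest difference in the central memory or activated cluster, and for likeness the 3 nearest genes per member. Outside this rule, Slamf6, Id2, Gpr183, Cd44 and Tbx21 were named for their values in the effector cluster. A result on 1 marker gene is not reported here.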

Additional observations from a re-analysis of the deposited data

Results flagged for a closer look

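Single mice stood far from the others of their group in 3 of 83 groups of 4 or 5 mice, where chance alone gives about 1 in 20. Sox4 over all cells was 0.051 in 564Igi mouse 17, with the next 564Igi mouse at 0.018. Klf2 in Sostdc1 cells was 0.36 in 564Igi mouse 24, with the next at 0.17. Sox4 in the central memory cluster was 1.41 in WT mouse 12, with the next at 1.19. The exact permutation test of whether the difference between conditions differed from that in activated cells gave a p below 0.05 in 6 of 24 tests. It was not run over all genes, so the share to set beside this count is not known. By limma, a different test, 5.94% to 8.92% of all genes had an unadjusted p below 0.05 in these comparisons. Ccr7 differed by 0.066 in Tfr cells, by 0.12 in the central memory cluster and by 0.057 in the effector cluster (exact permutation p 0.0397, 0.0179 and 0.0238). Tcf7 differed by -0.086 in Sostdc1 cells and by -0.33 in the effector cluster (exact permutation p 0.0476 and 0.0159), and Lef1 by -0.14 in the effector cluster (exact permutation p 0.0238). These tests share the activated cells, and the members are not independent of each other. The difference between expanded and single clonotypes differed between conditions in 2 of 21 tests. These were Tcf7 in activated cells, by -0.22, and Il7r in Tfr cells, by 0.087, each with an exact permutation p of 0.00794. The exact test was not run over all genes here either, and the counts that follow come from a different test. By limma, the number of all genes with an unadjusted p below 0.05 for this was 631 of 9859 in activated cells. It was 636 of 9994 in Tfr and 601 of 10061 in Sostdc1 cells. Il7r in Tfr cells differed by -0.12 between expanded and single clonotypes in WT and by -0.031 in 564Igi mice.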

How the results depend on the processing

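All 517 alternative fits of the 35 member differences with an unadjusted p below 0.05 kept their direction, and 8 passed the call rule where the reported fit did not. These 35 were picked by their p in the reported fit, and the alternatives reuse the same mice. A kept direction was therefore likely beforehand and is no independent support. Among 984 fits of the 70 differences with a higher p, 81 had the other sign, among them with clonotypes weighted equally S1pr1 in the effector cluster (0.036), Tcf7 in the activated cluster (0.11) and Tcf7 in the central memory cluster (-0.021). Effector Klf2 had limma adjusted p from 0.000603 to 0.986 over 19 alternatives, 14 of them below 0.05, Tcf7 from 0.00656 to 0.986 with 11 below 0.05, and Lef1 from 0.0400 to 0.986 with 1 below 0.05. The number of effector members passing the call rule was 0, and it was 1 on counts scaled to equal totals, 1 with a pseudocount of 0.1, 1 with the heat shock score as covariate, 2 without mice 34 and 36, and 0 to 1 with single mice left out (1 without WT mouse 23, WT mouse 36 or 564Igi mouse 17). Members lower at an unadjusted p below 0.05 numbered 2 in the activated cluster, against 1 without the trend, 1 without the filter, 4 with clonotypes weighted equally and 1 (without WT mouse 11 or 564Igi mouse 17) to 4 (without WT mouse 14) with single mice left out. In Tfr cells the number was 1, against 2 with clonotypes weighted equally and 1 to 2 (without WT mouse 12, WT mouse 14 or 564Igi mouse 17) with single mice left out. In the central memory cluster it was 1, against 0 with clonotypes weighted equally, which also brought in all 5 against 5 mice, and 0 (without WT mouse 11, 14 or 23, or 564Igi mouse 13) to 2 (without 564Igi mouse 17). In the effector cluster it was 4, against 2 with clonotypes weighted equally. In the ISG cluster it was 2, against 1 without the trend, 4 with labelled sex, 4 without mice 34 and 36, 0 with clonotypes weighted equally (again in 5 against 5 mice), 1 with a minimum of 10 or of 40 cells, and 0 (without WT mouse 23) to 4 (without WT mouse 14 or 36) with single mice left out. Shares of cells were tested for the 7 members over all cells and in each cluster, so the same cells enter more than once. They were lower at an exact permutation p below 0.05 in 10 cases, and in 5 with at least 2 UMIs. With at least 2 UMIs the Sox4 share in effector cells turned from -2.56 to 0.346 percentage points. Shares were not tested over all genes, so these counts have no background to be set against. Pairs of members related across mice at an adjusted p below 0.05 numbered 0 in activated and 1 in Tfr cells. The cause of these changes was not tested. Leaving out cells with more than 1 alpha or beta chain was not run, because each cell lists 1 of each. No paired analysis was possible because the mouse numbers are not shared between the conditions. The effector and central memory clusters hold few cells per mouse, which limits their values.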
